A study of Drosophila melanogaster with 12 samples.

Results

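The eye pigment genes described here are *w*, *st*, *bw*, *v*, *cn*, *cd*, *pr*, *Hn*, *Pu* and *ry*. They were taken by symbol, as 10 of the 17208 genes in the deposited tables of the eye discs and of the wing discs. The study overexpressed *fuss*, the *Drosophila* homologue of the Skor corepressors, in imaginal discs of larvae. Eye discs came from GMR-Gal4 > w1118 controls and from GMR-Gal4 > UAS-*fuss* larvae, and wing discs from nub-Gal4 > w1118 controls and from nub-Gal4 > UAS-*fuss* larvae, with 3 libraries in each of these 4 groups. Each eye library pooled 40 eye antennal discs and each wing library 30 wing discs. GMR-Gal4 drives expression in the differentiating retina, posterior to the morphogenetic furrow, and nub-Gal4 in the developing wing blade, so each disc also held cells outside the domain of its driver. The control cross of both tissues uses w1118, a mutant allele of *w* itself.

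The red-brown colour of the fly eye comes from ommochromes, which are brown and are made from tryptophan, and from drosopterins, which are red and are made from GTP through pteridines. Ommochrome synthesis runs through kynurenine and 3-hydroxykynurenine, and the pigments are stored in granules that are related to lysosomes. The early pteridine steps also supply tetrahydrobiopterin, the cofactor of the aromatic amino acid hydroxylases, in many tissues. Pigment is laid down in the pupal and adult eye, after the larval stage that was sampled here.

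Each table gives 1 level per gene, the authors' mean normalized count over the 6 libraries of that tissue with both genotypes together. These means carry no standard deviation and no difference between genotypes, and nothing below is a test of *fuss* overexpression. The means sum to 29977881 in the eye table and 34175754 in the wing table, and each table was scaled on its own. Levels are therefore given per 1000000 of the table's sum when the tissues are set side by side, and the ratio of tissues is the log2 of the eye level over the wing level with a pseudocount of 1 added to each mean. The lowest means in each table are whole multiples of 6 repeating steps, each the worth of 1 read in 1 library, in 96.5% of 2066 eye means and 96.0% of 1890 wing means under 1 (tolerance 1e-09). The steps give size factors from 0.691 to 1.20 in the eye libraries and from 0.844 to 1.40 in the wing libraries, so the deepest library had 1.74 and 1.66 times the depth of the shallowest. All 12 eye disc markers were at least 2 times higher in eye discs, and 8 of 10 wing disc markers were at least 2 times higher in wing discs. The transgene target *fuss* had a mean of 16643 in eye and 10363 in wing discs.

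Of the 10 pigment genes, *cn*, *cd* and *st* were at least 2 times higher in eye discs, *w*, *Hn*, *Pu* and *v* were at least 2 times higher in wing discs, and *bw*, *pr* and *ry* lay between. All 10 had a mean of at least 10 in at least 1 tissue. Over the 10542 genes with such a mean, 14.1% were at least 2 times higher in eye discs and 6.0% in wing discs, against 3 and 4 of the 10. Of the 4, *v* had a log2 ratio of -0.10 without 1 wing library, and the reads of *w* include any from transgene markers. The 10 genes were chosen with earlier results of these data known. The median log2 ratio was -0.22 for the pigment genes and 0.02 for all 10542 genes. A ratio between discs can come from fewer cells of a type or from less RNA per cell, which bulk samples cannot tell apart. The drivers also differ with the tissue, so tissue and driver insertion cannot be told apart. Lanes were not balanced either. All 3 wing libraries with *fuss* overexpression were in lane 5, and each other group had 1 library in lane 5 and 2 in lane 6. The part of lane in the ratios was not tested.

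**Figure D1:**
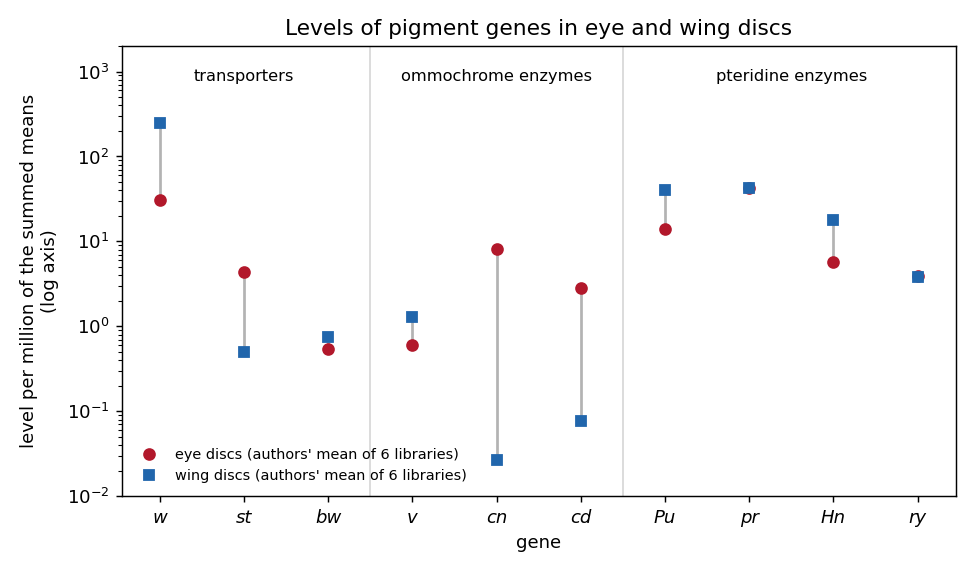
Level of each pigment gene per 1000000 of the summed means (log axis) in eye discs (circles) and wing discs (squares), each point the authors' mean of 6 libraries of both genotypes, without an error bar because the tables give none. *cn* and *cd* have the widest gaps towards eye discs, *w* has the widest gap towards wing discs, and the points of *pr* and *ry* nearly coincide.

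The pigment transporters *w*, *st* and *bw* encode subunits of ABC transporters of the ABCG family. The White protein pairs with Scarlet to carry ommochrome precursors into the granule and with Brown to carry pteridine precursors. The 3 genes took different positions. The mean normalized count of *w* (FBgn0003996, BDGP6.54 chromosome X, 2790599 to 2796466) was 921 in eye discs and 8479 in wing discs. This is a level 8.07 times higher in wing discs, at a log2 ratio of -3.01. In wing discs 95.7% of all genes had a lower mean than *w*, and in eye discs 72.1%. *w* is also the marker gene of many transgene insertions, and reads of the marker and of the endogenous gene are counted together. The control and the overexpression libraries enter this mean alike, so it does not show how *w* differed between genotypes.

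The partner gene *st* (FBgn0003515, chromosome 3L of BDGP6.54 from 16497651 to 16500460) went the other way. Its mean was 131 in eye discs and 17.2 in wing discs, a level 8.29 times higher in eye discs at a log2 ratio of 3.05. *bw* (FBgn0000241, chromosome 2R of BDGP6.54 from 23527805 to 23538499) was low in both discs, with a mean of 16.2 in eye and 25.8 in wing discs and a log2 ratio of -0.45. Per kilobase of the longest transcript, the level of *w* was 6.41 times that of *st* and 66.2 times that of *bw* in eye discs. In wing discs it was 451 times that of *st* and 382 times that of *bw*. Any reads of a *w* transgene marker are part of these values. Of the partners, *st* stood 10.3 times above *bw* per kilobase in eye discs and at 0.848 times *bw* in wing discs.

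Of the ommochrome enzymes, *cn* and *cd* were far higher in eye discs, while *v*, the enzyme of the opening step, was not. *cn* (FBgn0000337, chromosome 2R of BDGP6.54 from 7782797 to 7785067) encodes kynurenine 3-monooxygenase, which makes 3-hydroxykynurenine. Its mean was 244 in eye discs and 0.912 in wing discs. The log2 ratio was 7.19, the highest of the 10 genes, and 8.25 without a pseudocount. The wing mean of *cn* stands for 6 reads in all wing libraries together, against at least 1011 reads in the eye libraries. The 95% Clopper-Pearson interval of the log2 ratio without pseudocount runs from 7.13 to 9.70, which covers counting error only and not the spread between pools of discs.

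*cd* (FBgn0263986, chromosome 3R of BDGP6.54 from 22694959 to 22697990) encodes a haem peroxidase of the last steps towards ommochrome. Its mean was 85.5 in eye discs and 2.62 in wing discs, at a log2 ratio of 4.77. Its wing mean stands for 16 reads, and the counting interval of its log2 ratio without pseudocount (5.22) runs from 4.50 to 6.04. The order of the eye levels per kilobase was *cn*, then *st*, then *cd*, with *cn* 2.23 times above *st* and 4.18 times above *cd*. In wing discs the order was *st*, then *cd*, then *cn*.

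*v* (FBgn0003965, chromosome X of BDGP6.54 from 10923972 to 10925631) encodes tryptophan 2,3-dioxygenase, which opens the ring of tryptophan. Its mean was 18.1 in eye discs and 44.1 in wing discs. The wing level was 2.07 times the eye level at a log2 ratio of -1.05, just past the 2-fold limit, and the next gene on the other side of it was *bw* at -0.45. Per kilobase *cn* stood 9.80 times above *v* in eye discs, while in wing discs *v* stood 66.4 times above *cn*. The wing value rested on single libraries, at 28.1 times without wing library 6 and 105 times without wing library 3 (numbered as explained next).

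For 5 of these low means the whole reads in every library could be worked out, because only 1 set of whole reads gave the deposited mean. The libraries are numbered here by falling size factor within a tissue, and their genotype is not known. In eye discs *v* had normalized counts of 24.1, 10.1, 17.1, 19.97, 31.8 and 5.79 in libraries 1 to 6, from 4 to 29 reads. In wing discs they were 30.0, 13.0, 3.06, 27.2, 38.7 and 153. The last of these wing libraries stood apart with 129 of the 248 *v* reads, and the other 5, from 3.06 to 38.7, overlapped the eye libraries. Without it the mean of *v* in wing discs was 22.4 and the log2 ratio -0.10, so the higher level of *v* in wing discs rested on this 1 library. Leaving out eye library 2 or 6 also took the fold under 2, to 1.91 and 1.83.

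The normalized counts of *st* in the wing libraries were 7.15, 12.0, 33.6, 16.8, 29.8 and 3.55. They spread over a wide range, from 3 to 33 reads, and the highest stayed well under the eye mean of 131. *cd* had normalized counts of 2.15, 5.003, 3.06, 3.14, 0 and 2.37 in the same order. *cn* had 2 reads in each of wing libraries 1, 2 and 3 and 0 in the other 3, where a count of 0 allows up to 3 reads in a library. Without any 1 wing library the log2 ratio stayed between 2.85 and 3.34 for *st*, between 4.57 and 4.97 for *cd* and between 7.06 and 7.37 for *cn*. Wing library 6, the one high in *v*, held the fewest *st* reads, 3, and 0 of the *cn* reads. For *bw*, which has 2 annotated transcripts, no set of whole reads gave either mean.

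**Figure D2:**
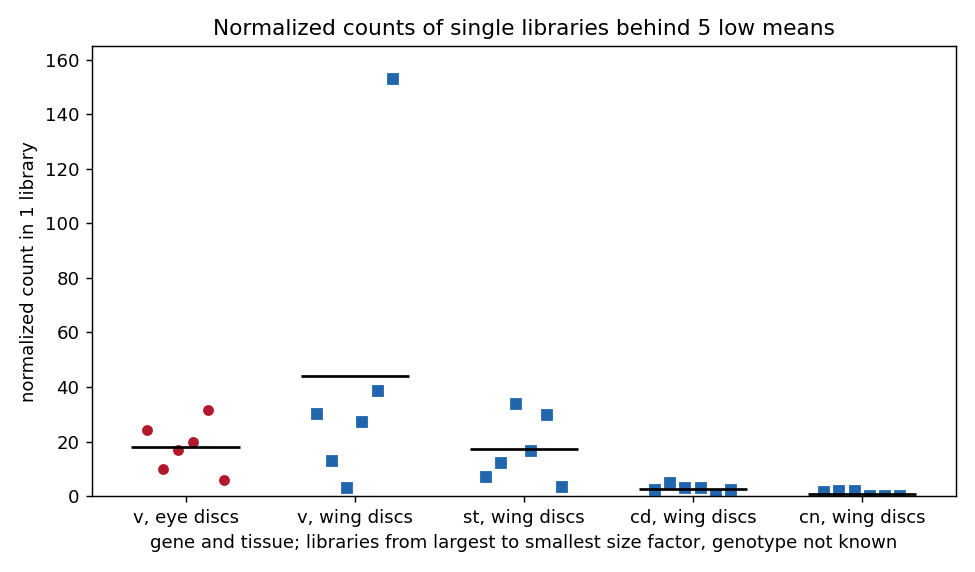
Normalized counts in single libraries behind 5 low means (y axis, linear), with circles for eye and squares for wing libraries and a bar at the mean of 6 libraries. The libraries run from the largest to the smallest size factor and are not tied to a genotype. 1 wing library lies at 153 for *v*, far above the other 5, whereas *st*, *cd* and *cn* have no library that stands apart in this way.

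Among the pteridine genes, *Pu* and *Hn* were higher in wing discs, and *pr* and *ry* were at nearly the same level in both. *Pu* (FBgn0003162, chromosome 2R of BDGP6.54 from 21175315 to 21182608) encodes GTP cyclohydrolase I, which commits GTP to the pathway. Its mean was 415 in eye discs and 1363 in wing discs, a level 2.88 times higher in wing discs at a log2 ratio of -1.52. *Hn* (FBgn0001208, chromosome 3L of BDGP6.54 from 7760453 to 7763166) encodes phenylalanine hydroxylase, an enzyme that uses tetrahydrobiopterin. Its mean was 173 in eye discs and 608 in wing discs, a level 3.07 times higher in wing discs at a log2 ratio of -1.62. Per kilobase *Pu* stood 2.44 times above *Hn* in eye and 2.28 times in wing discs, so the step between them was nearly the same in both.

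*pr* (FBgn0003141, chromosome 2L of BDGP6.54 from 20073719 to 20075458) encodes 6-pyruvoyl-tetrahydropterin synthase, the enzyme after *Pu*. Its mean was 1284 in eye and 1443 in wing discs, and the log2 ratio was 0.02. *ry* (FBgn0003308, chromosome 3R of BDGP6.54 from 13032528 to 13038020) encodes xanthine dehydrogenase, which oxidises purines and pterins. Its mean was 117 in eye and 129 in wing discs, at a log2 ratio of 0.04. With the means as deposited, not scaled to their sums, the log2 ratios of *pr* and *ry* turned to -0.17 and -0.15. The level of *pr* per kilobase was 5.17 times that of *Pu* in eye discs and 1.77 times in wing discs.

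Markers of other tissues also differed between the discs. Of 7 fat body markers 6 had a mean of at least 10, of which 4 were at least 2 times higher in wing discs and 2 were neither. Their summed level per 1000000 was 3878 in eye and 9665 in wing discs, 2.49 times higher in wing discs. The log2 ratios of the 6 ran from -1.43 for *Fbp1* and -1.41 for *Lsp1beta* through -1.27 for *Lsp2* and -1.25 for *Fbp2* to -0.76 for *Lsp1alpha* and -0.57 for *apolpp*, and *Yp1*, under that mean, had a log2 ratio of 1.19. Of the muscle markers 3 of 7 were at least 2 times higher in wing discs, among them *twi*, 11.0 times, and *Mhc*, 3.47 times. Of the tracheal markers 2 of 5 were, *trh* at 11.3 times and *btl* at 2.64 times. 0 markers of muscle or trachea were at least 2 times higher in eye discs, and the other 4 of muscle and 3 of trachea were neither. The median log2 ratio was -0.01 for the muscle markers and 0.16 for the tracheal markers. The summed muscle level was 1.14 times higher in wing discs, and the summed tracheal level was 1.11 times higher in eye discs. The part of fat body, muscle or tracheal RNA in the levels of *w*, *Pu*, *Hn* and *v* was not tested.

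In eye discs 4 of 6 glial markers were at least 2 times higher, among them *repo*, 65.1 times, and *wrapper*, 9.68 times, while *Gs2* was 2.15 times higher in wing discs. The median log2 ratio of the glial markers was 1.46 and their summed level was 1.41 times the wing level. Of the haemocyte markers 5 of 8 were at least 2 times higher in eye discs, among them *Hml*, 3.56 times, and *Pxn*, 3.46 times, with a median log2 ratio of 1.298 and a summed level 1.63 times that of wing discs. Of the genes listed as optic lobe and neuroblast markers 5 of 6 were, with a summed level of 193 in eye and 29.1 in wing discs, 6.61 times. Much of the eye sum came from *brp* (92.0 against 1.14) and *nSyb* (37.9 against 0.919), genes of neurons in general. *mira* was 7.81, *wor* 6.27 and *ase* 3.24 times higher in eye discs, and *dpn*, at 1.31 times, was neither. The part of these cells in the levels of *cn*, *cd* and *st* was not tested. Of 5 markers of Malpighian tubules 3 had a mean of at least 10, of which *Irk2* was 10.2 times higher in eye discs, *NHA1* was 2.43 times higher in wing discs and *Oat* was neither. *Uro*, the only one of all these markers at 0 in a tissue, was listed at 0 in eye discs. Its wing mean of 3.49 stands for 28 reads, of which 26 were in wing library 1, so it rested on 1 library.

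Within each tissue the order of the 10 genes per kilobase differed. In eye discs the levels per 1000000 and per kilobase ran from *pr* (39.9) and *w* (13.1) through *Pu* (7.72), *cn* (4.54), *Hn* (3.17), *st* (2.04), *cd* (1.09) and *ry* (0.897) to *v* (0.464) and *bw* (0.197). In wing discs they ran from *w* (105) and *pr* (39.3) through *Pu* (22.2), *Hn* (9.77), *v* (0.990), *ry* (0.871), *bw* (0.276) and *st* (0.234) to *cd* (0.0293) and *cn* (0.0149). For most of these levels the spread over libraries is unknown, so most neighbours cannot be compared. In the wing libraries, the normalized count per kilobase was above that of *cd* for *st* in 6 of 6 libraries, although the ranges of 1.66 to 15.7 and 0 to 1.91 overlapped. *cd* was above *cn* in 5 of 6 libraries and both were at 0 in 1. These values come from 16 and 6 reads, and the ranges of 0 to 1.91 and 0 to 1.14 overlapped throughout that of *cn*. *v* was above *st* in 5 of 6 libraries. *cn* moved from the fourth place in eye discs to the last in wing discs, and *v* from the ninth to the fifth. Without wing library 6 the wing level of *v* per kilobase was 0.502. This is below the level of *ry* over all 6 libraries (0.871), whose reads in wing library 6 are unknown.

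**Figure D3:**
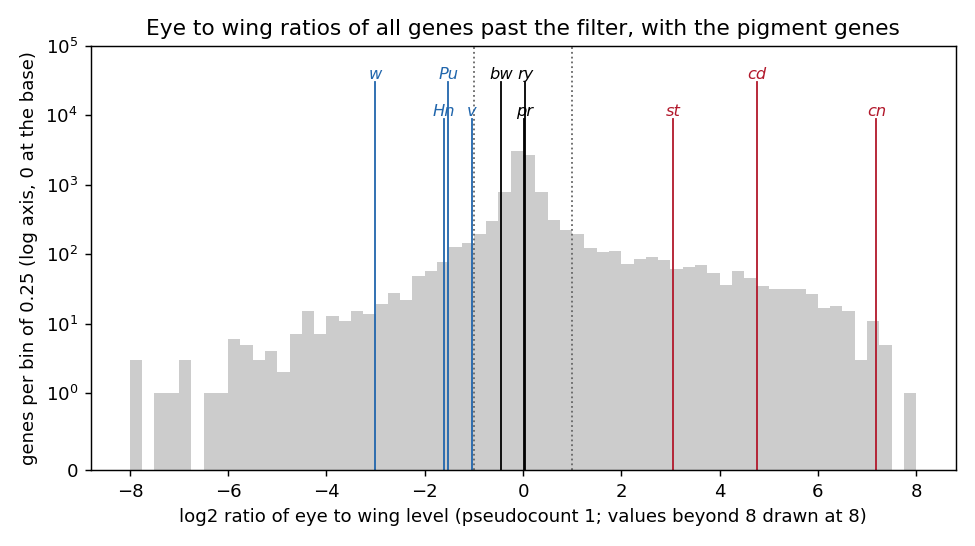
Number of genes (y axis, log scale with 0 at the base) by log2 ratio of eye to wing level (x axis, bins of 0.25) for the 10542 genes with a mean of at least 10 in at least 1 tissue, with lines at the 10 pigment genes and dotted lines at a fold of 2, ratios beyond 8 being drawn at 8. *cn*, *cd* and *st* lie in the long tail towards eye discs, *w* lies in the thinner tail towards wing discs, and *pr* and *ry* lie at the peak.

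The other genes of the pigment pathways mostly lay close to equal levels in both discs, as did most of all genes. The lists for ommochromes, for pteridines and tetrahydrobiopterin and for the pigment granule hold 26 genes that are not among the 10. They are not limited to enzymes that make pigment. Of the 26, 25 had a mean of at least 10, of which 2 were at least 2 times higher in eye discs, 0 in wing discs and 23 neither. Of all 10542 genes with such a mean, 8426 were neither, while 14.1% were at least 2 times higher in eye discs and 6.0% in wing discs. The median log2 ratio of all 26 was 0.08. Those higher in eye discs were *ltd*, which encodes the granule GTPase Rab32, with means of 1775 and 590 and a log2 ratio of 1.78, and *kar*, named for an eye colour mutant, with means of 715 and 402 and a log2 ratio of 1.02. *KFase*, the kynurenine formamidase that acts between *v* and *cn*, had means of 76.5 and 125 and a log2 ratio of -0.52. None of the 10 other pteridine and tetrahydrobiopterin genes reached a fold of 2, and their log2 ratios ran from -0.79 to 0.30. The most abundant were *cl*, *cin*, *Dhpr* and *Pcd*, with log2 ratios of 0.10, 0.20, -0.06 and 0.18. The granule genes *rb*, *g*, *lt* and *ca*, which act in protein sorting to the granule, had log2 ratios of 0.03, 0.18, -0.03 and 0.23. *Pu* and *Hn* were thus the pteridine genes of the list with a fold of 2 between the discs.

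The pigment transporters could also be set beside the other 12 genes of the ABCG family. Of these, 1 gene, *CG31689*, was at least 2 times higher in eye discs, at a log2 ratio of 1.09, 0 were higher in wing discs and 11 were neither. Over the 10542 genes with a mean of at least 10, the shares were 14.1% in eye and 6.0% in wing discs, and 8426 genes were neither. The log2 ratios of the 12 ran from -0.59 to 1.09 with a median of 0.27. Those of *w* (-3.01) and *st* (3.05) lay outside this range on opposite sides. Any reads of a *w* transgene marker are part of its ratio, and their share was not tested. *CG3164*, the most abundant of the 12, had means of 6714 and 6277.

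**Figure D4:**
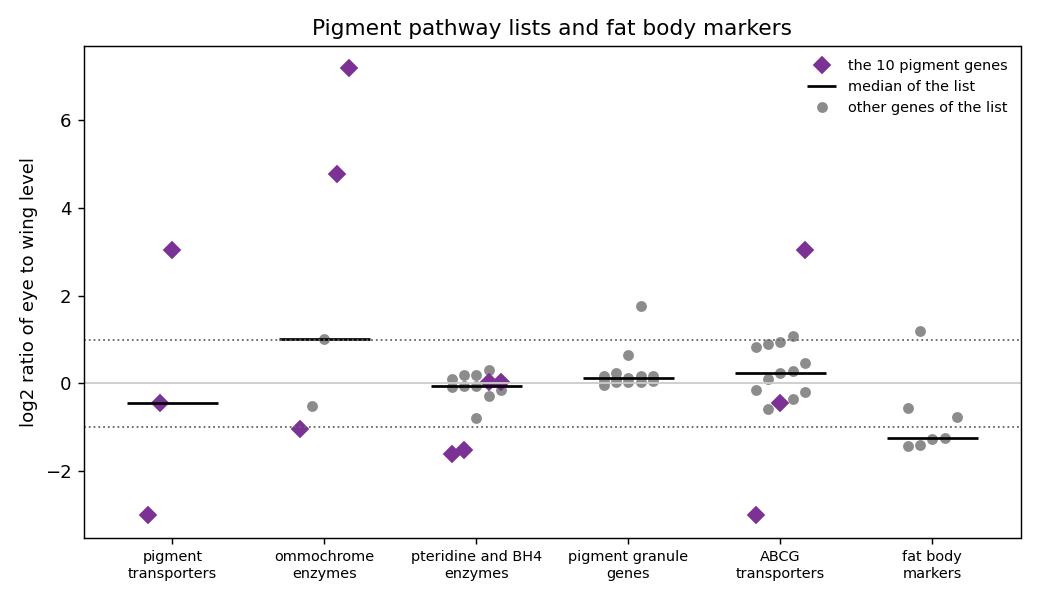
Log2 ratio of eye to wing level (y axis) of every gene in 5 lists of pigment and transporter genes and of 7 fat body markers, with the 10 pigment genes as diamonds, other genes as circles, a bar at each list's median and dotted lines at a fold of 2. The diamonds spread from -3.01 to 7.19, while the granule genes other than *ltd* lie between -0.03 and 0.65.

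Positions in the annotation limit some of these values, because it is not given in the sources used here how strand entered the counting. The antisense gene *asRNA:CR45108* overlaps 1229 exon bases of *cn*, 68.7% of its exons. It had means of 33.7 in eye and 3.16 in wing discs, higher in eye discs as *cn* was, and reads of the shared bases cannot be told apart without strand. Exons of *mi* on the other strand overlap 456 bases of *bw*, 16.7% of its exons, and *mi* was much more abundant, with means of 1447 and 1781. Exons of *bwa* share 1 base with *pr*. *w* lies within *kirre* and *st* within *CG43373*, in both cases on the other strand and without shared exon bases.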

How the data were processed

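RNA was sequenced from 12 libraries of eye and wing discs, grouped by the sample titles. Per the labels and the paper's methods, the authors quantified reads with Salmon 1.1.0 on BDGP6.22, imported them with tximeta and normalized and compared them with DESeq2 1.30.0. The column used is the authors' mean normalized count, a signal deposited per gene and tissue over 6 libraries. The other 5 numeric columns of each table hold the authors' own comparison of the genotypes and were not used. The eye samples carry nub-Gal4 in their source field and GMR-Gal4 in their genotype field, and the latter was taken.

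Ratios were called at a fold of 2 over genes with a mean of at least 10 in at least 1 table. No test between tissues was run, since the tables were normalized separately and give 1 mean per gene. Whole reads were sought for listed means under 50 and kept where a single solution existed, for *v* in wing discs with 0.0124 solutions expected by chance. Calculations were tested on simulated data. Gene positions and lengths came from Ensembl 115 (BDGP6.54), which held 17083 of the gene identifiers. 3 list symbols were matched through identifiers or RefSeq synonyms (*ltd*, *Trhn*, *NHA1*). Members and lists were chosen with earlier results of these data known. Named are all 10 genes and, for the pathway lists, the 4 most abundant genes and up to 2 of largest ratio in each direction. Of the marker lists mainly sums are given, and other genes were named for their place in the pathway or after their values were seen. Python 3.11.15, numpy 2.4.6, pandas 2.3.3, scipy 1.17.1 and matplotlib 3.10.9 were used. Alternatives were other scalings, filters, folds, pseudocounts, gene lengths and, chosen after seeing the data, leaving out 1 library.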

Additional observations from a re-analysis of the deposited data

Results flagged for a closer look

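In the wing discs 1 of 6 libraries stood far from the others for *v*, with a normalized count of 153 against 3.06 to 38.7 in the other 5. The gap to the nearest library was 0.762 of the whole range, above Dixon's 95% critical value for 6 samples. Of 5 sets of libraries examined for the pigment genes, this was the 1 that passed. Among other listed genes the wing sets of *repo* (0.658) and *Uro* (0.873) passed as well. The sets of *se* and *Trhn* in both tissues, of *wrapper* and *wor* in wing discs and of *salt* in eye discs did not pass. The critical value is set so that chance flags about 1 set in 20 of normally distributed values, which low read counts need not follow. The 6 libraries hold both genotypes, and the genotype of the high library is not known.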

How the results depend on the processing

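The count of pigment genes higher in eye discs was 3 under every scaling, filter, fold and pseudocount tried. The count higher in wing discs was 4, or 1 (*w*) at a fold of 4, and 3 to 4 without 1 wing library. *v* fell out of the wing count with a minimum mean of 50, with a pseudocount of 5, and without wing library 6, eye library 2 or eye library 6. The log2 ratio of *cn* was 8.25 with a pseudocount of 0 and 5.58 with 5, and that of *cd* was 3.76 with 5. Of 50 ratios under the planned settings 0 of those past a fold of 2 changed sign. Over all genes the counts of 1483 and 633 were 947 and 229 at a fold of 4, the eye count was 988 with a minimum mean of 50, and the wing count was 996 at a fold of 1.5. Other gene lengths changed no place in the orders per kilobase. No paired analysis was possible because the tables give 1 mean per gene and tissue. Leaving out labelled replicates was not run for the same reason. Reads per library were not worked out for means of 50 or more, so the spread of *w*, *Hn*, *Pu*, *pr* and *ry* between libraries is unknown.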
